A study of Mus musculus with 419 samples.

Results

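A small set of embryonic stem cells in this series carried transcripts that are otherwise typical of the 2-cell embryo. For each cell, the values of 8 genes (Zscan4a, Zscan4c, Zscan4d, Zfp352, Tdpoz4, Usp17la, Usp17lc and Usp17le) were summed over all their annotated transcripts and over both alleles, and expressed in ppm, that is, per 1000000 of the cell's total. The 10 cells with the highest sum, of 419 in all, are described here as cells 1 to 10 in the order of their sums. They were set against the 303 cells whose sum was 0. The remaining 106 cells had sums between 1.03 and 14.8 and stand between these groups. Cell 1 is given apart from cells 2 to 10, because its sum was several times that of any other cell.

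All 419 cells belong to 1 group. They are female 129/CAST hybrid F1 embryonic stem cells of the line F1-21.6 (129Sv-Cast/EiJ), which carries one chromosome set from each strain, and they were grown on laminin-511 with serum and leukemia inhibitory factor (LIF). Cells were in G1 phase and each was sequenced singly with RamDA-seq, in which total RNA is copied along whole transcripts and no molecular identifiers are added. The labels name a single line and no separate cultures, so cells are not replicates of a condition. Values are given per cell, with no p-value and no standard error.

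In mouse embryonic stem cell cultures, rare cells enter and leave a 2-cell-like state, in which genes of the newly activated embryonic genome are transcribed again. The transcription factor DUX is known to open this programme, which includes the Zscan4 cluster, the Usp17-like deubiquitinating enzymes, many multicopy genes, and endogenous retroviruses of the MERVL family, whose terminal repeats also drive chimeric transcripts. Zscan4 proteins, which hold a SCAN domain and zinc fingers, are known for their part in telomere maintenance. Expression of Zscan4 is more frequent than the full MERVL-positive state.

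Promoter windows are shown for 4 of the genes in the sum, to make the relation between family members visible, and for Gm4340 and AF067061, from the list of other 2-cell genes described further on, because they hold a second motif. Each window runs from 250 bases before to 50 bases after a RefSeq gene start in build GRCm38.p6, is written 5′ to 3′ on the gene's strand, and contains the start of the gene's leading row in the files. Capitals mark the letters TATAAA in the Zscan4 and Usp17-like windows and GATTNAATC in the last pair of windows. Zscan4c is at chr7:11005495-11005794 (+), Zscan4d at chr7:11166099-11166398 (-), Usp17lc at chr7:103416446-103416745 (+) and Usp17la at chr7:104856766-104857065 (+). Gm4340, which encodes a relative of the RNA export adaptor ALYREF, is at chr10:104193792-104194091 (+), and AF067061, a relative of Tcstv1, is at chr13:120262845-120263144 (+).
Zscan4c: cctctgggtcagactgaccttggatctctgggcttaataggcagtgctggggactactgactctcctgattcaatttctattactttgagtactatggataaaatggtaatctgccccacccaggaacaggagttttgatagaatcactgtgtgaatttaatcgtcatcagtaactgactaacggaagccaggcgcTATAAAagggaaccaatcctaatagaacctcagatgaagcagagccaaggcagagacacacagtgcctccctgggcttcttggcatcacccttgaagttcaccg
Zscan4d: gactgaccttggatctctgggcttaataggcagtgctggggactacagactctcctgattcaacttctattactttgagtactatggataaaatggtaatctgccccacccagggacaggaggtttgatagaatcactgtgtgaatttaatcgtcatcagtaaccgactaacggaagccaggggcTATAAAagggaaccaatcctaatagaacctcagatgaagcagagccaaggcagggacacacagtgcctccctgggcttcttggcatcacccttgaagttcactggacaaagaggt
Usp17lc: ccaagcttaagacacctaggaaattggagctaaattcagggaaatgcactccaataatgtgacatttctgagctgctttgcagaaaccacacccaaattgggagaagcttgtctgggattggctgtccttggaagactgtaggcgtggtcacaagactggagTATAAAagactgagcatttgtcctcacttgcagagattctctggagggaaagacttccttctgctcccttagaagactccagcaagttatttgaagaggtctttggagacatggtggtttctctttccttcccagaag
Usp17la: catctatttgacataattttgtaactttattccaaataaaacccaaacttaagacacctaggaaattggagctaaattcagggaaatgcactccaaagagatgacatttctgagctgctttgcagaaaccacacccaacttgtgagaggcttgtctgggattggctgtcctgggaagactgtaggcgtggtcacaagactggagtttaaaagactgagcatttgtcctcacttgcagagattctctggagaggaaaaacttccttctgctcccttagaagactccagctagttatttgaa
Gm4340: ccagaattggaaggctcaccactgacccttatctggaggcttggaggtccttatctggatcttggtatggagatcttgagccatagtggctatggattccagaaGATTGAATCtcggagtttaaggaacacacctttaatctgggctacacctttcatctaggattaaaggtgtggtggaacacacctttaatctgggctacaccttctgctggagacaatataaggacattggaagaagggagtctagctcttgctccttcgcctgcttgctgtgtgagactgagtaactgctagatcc
AF067061: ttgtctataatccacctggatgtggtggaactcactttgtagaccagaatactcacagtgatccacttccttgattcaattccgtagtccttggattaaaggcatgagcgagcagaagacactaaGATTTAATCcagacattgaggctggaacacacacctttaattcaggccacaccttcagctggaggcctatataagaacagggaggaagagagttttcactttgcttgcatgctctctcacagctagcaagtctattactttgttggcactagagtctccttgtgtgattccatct
The Zscan4c and Zscan4d windows matched at 97.6% of 287 aligned bases, and those of Usp17lc and Usp17la at 95.0% of 258. The window of Usp17la does not hold TATAAA. Across both strands, TATAAA was found in 3 of the 6 windows that matched the 8 genes (Usp17lc, Zscan4c and Zscan4d) and in 13.6% of all 32851 windows. GATTNAATC resembles the core of the recognition site known for mouse DUX; its letters do not overlap TATAAA. It was found in 0.268% of all windows, in 0 of the 6, and in 7 of 42 windows (16.7%) of the other 2-cell genes. Of those 7, the windows of Gm4340, Gm21312 and Gm21304 are copies of one another, identical over 300 and 299 aligned bases. A match is a description of these letters and not a binding site.

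The deposited totals of the cells with a sum of 0 ranged from 698363 to 1083170, with a median of 925160. Their transcript rows above 0 ranged from 18495 to 32760, with a median of 29431. Cells 2 to 10 lay inside these ranges, with totals from 828426 to 1006692 and 28256 to 31949 rows. Cell 1 had the highest total of the series, 1477656, with 21872 rows above 0, below the median but inside the range of rows. The autosomal 129 share of the 10 cells was 47.9% to 49.5%. Cell 7 stood apart, with 0.0313% of its total in mitochondrial rows against a median of 4.77% in cells with a sum of 0. It was 1 of 11 cells in the series below 1%, 7 of which had a sum of 0. The cells were sequenced in 5 lanes, and the 10 chosen cells came from 4 of them: 3 from lane 2, 2 from lane 4, 1 from lane 5 and 4 from lane 6. Lane 3 held none of them among its 83 cells.

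The sum that selected the cells fell off steeply. It was 6611 ppm in cell 1, 1134 in cell 2, 1048 in cell 3 and 409 in cell 4. It then dropped to 68.8 in cell 5 and to 31.6, 28.9, 27.8, 24.7 and 21.6 in cells 6 to 10. The first cells outside the limit had 14.8 and 11.5. Only 4 cells of the series exceeded 100, so the lower members differ from the cells just outside by a few units of a low value.

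**Figure D1:**
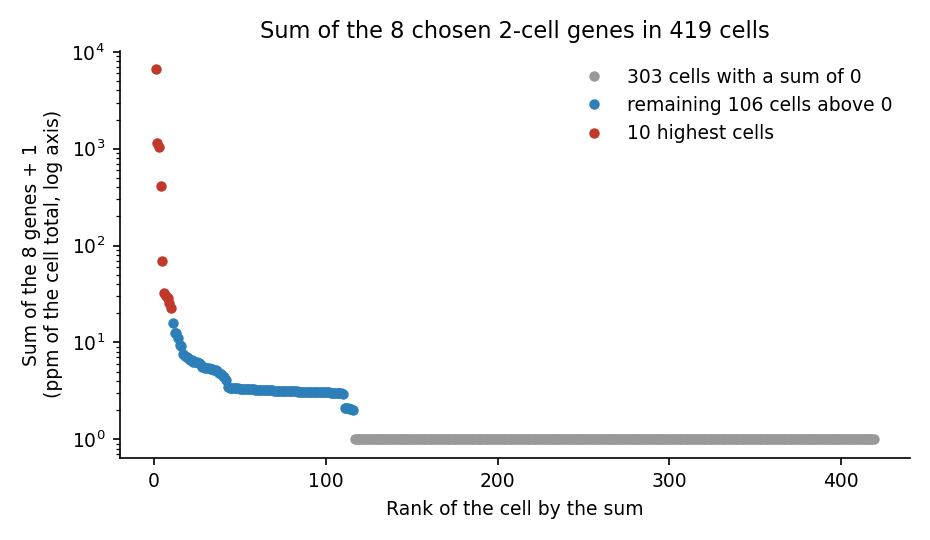
Sum of the 8 genes plus 1, ppm of the cell total on a log axis, against the rank of the cell among 419 (grey, cells with a sum of 0; blue, remaining cells above 0; red, the 10 highest). Cells 1 to 4 lie above 100, while cells 5 to 10 continue towards the remaining cells.

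The sum itself cannot test the label. Genes outside the sum are described further on, but some of them are relatives of the chosen genes. All 4 marker genes (Zscan4c, Zscan4d, Zfp352 and Usp17lc) were above 0 in cells 1 to 4. Zscan4c, a protein-coding member of the cluster at chr7:11005745-11010547, stood at 507, 299.99, 375.9 and 51.1 ppm in cells 1 to 4 and at 0 in cells 5 to 10. Zscan4d stood at 1024, 8.94, 33.2 and 57.8 in cells 1 to 4, at 13.1 in cell 6 and 2.41 in cell 8, and at 0 in the other four. Zscan4a, annotated as an unprocessed pseudogene of the cluster, was higher in cell 2 (580) than in cell 3 (301), cell 1 (242) or cell 4 (41.1). The copies thus differed in which cell was highest. These values chose the cells and are given as a description only.

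Zfp352, a zinc finger gene of the 2-cell embryo, was high in cell 1 alone, with 1305 ppm there, 12.9, 2.08 and 37.8 in cells 2 to 4, 3.27 in cell 6 and 0 in the other five. Tdpoz4, which encodes a protein with TRAF and POZ domains, was at 480 in cell 1, at 1.11 in cell 4 and at 0 in the other eight. Usp17lc, a deubiquitinating enzyme, was present in 8 of the 10 cells: 2764 in cell 1, 224 in cell 2, 315 in cell 3, 187 in cell 4, 22.9 in cell 5, 9.82 in cell 6, 2.31 in cell 7 and 2.16 in cell 10. Its relative Usp17le had a flat profile, from 4.97 to 24.7 in 9 of the cells, and was not high in cell 1 (12.2). In cells 7 to 9 it made up most of the sum, with 20.8, 22.9 and 24.7, and up to 14.8 was found in a remaining cell. The number of the 8 genes above 0 was 8, 7, 7, 8, 3, 4, 3, 3, 1 and 4 in cells 1 to 10. Cells 5 and 7 to 10 were thus selected mainly by low values of Usp17-like genes, whereas cell 6 had 18.5 of its 31.6 from Zscan4a and Zscan4d.

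**Figure D2:**
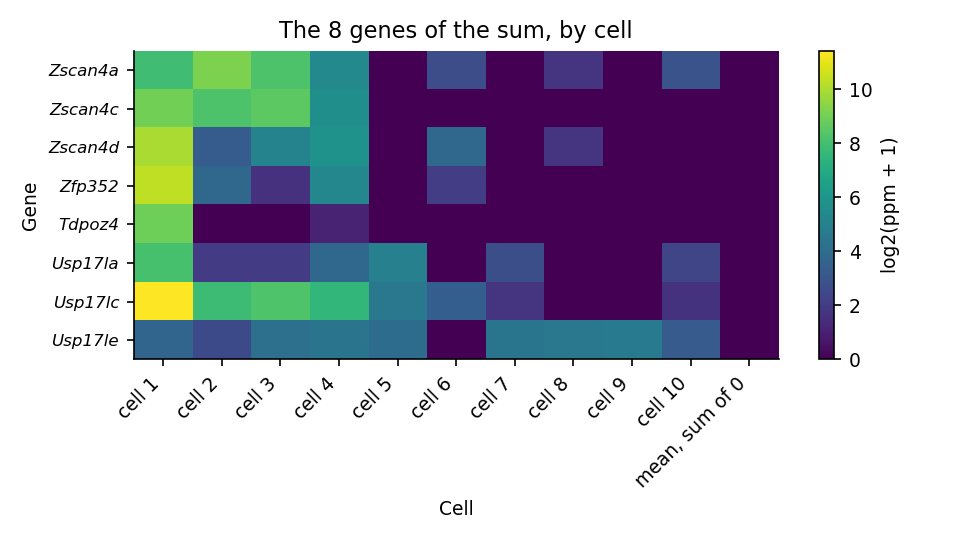
Heat map of log2(ppm + 1) of the 8 genes (rows) in cells 1 to 10 and as the mean of the cells with a sum of 0 (columns). Tdpoz4 is bright in cell 1 alone, and Zfp352 and Zscan4d are brightest there and fainter in other cells. Zscan4a, Zscan4c and Usp17lc are brightest in cells 1 to 4, and Usp17le is faint in nearly all cells.

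Genes known from the 2-cell state that the sum did not use were then examined. Of 92 such genes listed, 87 have rows in the files, and 58 of these were higher in cell 1 than in every cell with a sum of 0, where 2.49% of all 48245 genes were. The count was 40 in cell 2 (1.40% of all genes), 33 in cell 3 (1.16%), 38 in cell 4 (0.634%), 20 in cell 5 (0.790%) and 12 in cell 6 (0.390%). It was 2 in cell 7 (0.742% of all genes), 3 in cell 8 (0.369%), 1 in cell 9 (0.143%) and 7 in cell 10 (0.375%). The list's share thus lay above that of all genes in each of the 10 cells, but it rested on 1 to 3 genes in cells 7 to 9, where the label has little behind it. All 10 comparisons share the same 303 cells. The 58 genes in cell 1 include 5 Zscan4, 2 Usp17-like and 4 Tdpoz relatives of the chosen genes. Their rows share sequence with other genes, so reads of the chosen genes may have been counted for them. These relatives are therefore not independent of the choice of cells.

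Fold changes were taken on the log2(ppm + 1) scale against the mean of the cells with a sum of 0, over genes with at least 5 ppm in either. In cell 1, 11800 genes were compared, of which 8.60% were at least 4-fold higher and 36.4% at least 4-fold lower. Of the listed genes, 64 were compared, 59 were at least 4-fold higher, and 2 were at least 4-fold lower. The list median was 6.73 against -1.43 for all genes compared. Of the 64, however, 57 passed the level minimum only through cell 1 and so had to be higher there, and these counts describe the list without supporting it. Of all 10694 genes that reached the minimum in the cells with a sum of 0, 1.97% were at least 4-fold higher in cell 1 and 40.1% lower. Among the 7 listed genes of this kind, 3 were higher (Fbxo15, Ddit4l and P4ha2), 2 were lower (Zfp42 and Calcoco2), and Ythdc2 and Zswim3 did not reach 4-fold.

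The Zscan4 relatives outside the sum followed the chosen members in part. The other 6 annotated copies and pseudogenes together held 1934 ppm in cell 1, 256 in cell 2, 1247 in cell 3 and 344 in cell 4, against 18.5 or less in cells 5 to 10 and at most 7.60 in a cell with a sum of 0. Zscan4f stood at 779, 67.5, 659 and 57.8 in cells 1 to 4. Zscan4e was listed at 0 in cell 1 but at 57.6, 44.6 and 143 in cells 2 to 4. Cell 3, whose Zfp352 was near 0, thus had Zscan4f close to the level of cell 1.

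Multicopy families outside the sum differed in which of cells 1 to 4 were high. The 6 Obox genes summed to 16.9 and 7.95 ppm in cells 1 and 2 and to 0 in cells 3 and 4. Cells with a sum of 0 held up to 31.9 of them. Duxf3 and Duxbl1 together stood at 23.7, 119, 41.5 and 17.8 in cells 1 to 4, against at most 31.5. The 4 other Tdpoz genes summed to 982 ppm in cell 1, 12.9 in cell 2 and 11.1 in cell 4, and were listed at 0 in cells 3 and 5 to 10 and in all cells with a sum of 0. Many predicted genes on the list have no telling name, so their longest open reading frames, from the annotated transcripts, were compared with those of 4 named genes. A gene was placed in a family at 35% or more identical residues over at least 100 aligned. This grouping was made after the data were seen.

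Tcstv1, of the 2-cell-stage variable group, and its relatives numbered 8, all on chromosome 13. The identity of the relatives to Tcstv1 was 61.2% to 91.2%. They summed to 2900 ppm in cell 1, 410.3 in cell 2, 37.4 in cell 3 and 112.2 in cell 4, to 6.55 in cell 6 and 2.41 in cell 8, and to 0 in the other four, against at most 2.44 in a cell with a sum of 0. Pramef6 and its relatives, members of the PRAME family, numbered 12 and summed to 2383, 320.9, 266.8, 108.9 and 207.3 in cells 1 to 5. They held 2.16 to 18.5 in cells 6 to 10, inside the range of the cells with a sum of 0 (up to 27.6). Cell 5 was thus high for the PRAME family and at 0 for the Tcstv1 relatives. Pramef25 alone stood at 370, 120, 17.7 and 3.33 in cells 1 to 4 and was listed at 0 in every cell with a sum of 0.

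Copies of Eif1a, which encodes a translation initiation factor, numbered 9, all on chromosome 12, with 90.3% to 94.4% identity to Eif1ax. They summed to 5603 ppm in cell 1, 907.9 in cell 2, 1058 in cell 3 and 445 in cell 4. Cells 5 and 6 held 128.1 and 38.2, cell 10 held 20.5, and cells 7 to 9 held 0, 0 and 1.08, against at most 7.96 in a cell with a sum of 0. Relatives of Alyref2, which belongs to the RNA export adaptors, numbered 4, all on chromosome 10, with 62.3% to 63.2% identity. Gm4340 held nearly all of their values. It stood at 9952 in cell 1, 2268 in cell 2, 11.4 in cell 3 and 517 in cell 4, so cells 2 and 4 were high where cell 3 was not. The Eif1a copy Gm2016 had another order, with 1563, 182, 394 and 120. The canonical genes Eif1a and Eif1ax were lower in cell 1. Eif1a was at 54.1 against a mean of 222 and Eif1ax at 16.9 against 107.7 in the cells with a sum of 0. Lower values were common in cell 1, where 36.4% of all genes compared were at least 4-fold lower. The median log2 fold change of all genes there was -1.43.

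Other genes on the list have rows that share little sequence with other genes. Tmem92, a transmembrane protein gene, was at 420, 496, 96.6, 38.9 and 85.4 ppm in cells 1 to 5, at 2.18 or less in cells 6 to 10, and at most 8.88 in a cell with a sum of 0. Fbxo15, an F-box gene active in all embryonic stem cells, was at 2076 in cell 1, 157 in cell 2, 1123 in cell 3, 471 in cell 4 and 1087 in cell 5, against a mean of 102.3 and a highest value of 493 in the cells with a sum of 0. Cells 1, 3 and 5 therefore lay above all of those cells, and cells 2 and 4 did not. P4ha2, a collagen prolyl hydroxylase subunit, was at 220, 240, 42.6, 18.9 and 394 in cells 1 to 5 (mean 6.66 and highest value 130 in the cells with a sum of 0). Ddit4l, a regulator of mTOR signalling, was at 621 in cell 1 and between 1.04 and 85.5 in cells 2 to 10 (highest value 57.5 in the cells with a sum of 0).

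Cell 5 combined such genes with little Zscan4. It had 0 for Zscan4a, Zscan4c and Zscan4d, 2.08 for Zscan4f and 8.33 for Zscan4b, which was listed at 0 in all 303 cells with a sum of 0, while BC080695 was at 53.1 and Gm13119 at 136, the highest value of Gm13119 in any of the 10 cells. BC080695 was listed at 0 in all 303 cells with a sum of 0 and stood at 906 in cell 1. Calcoco2, an autophagy receptor gene that was at 16.2 in cell 1, was at 736 in cell 5, which is inside the range of the cells with a sum of 0 (up to 969). Duxf3, the annotated Dux gene, was at 6.77 in cell 1, 105 in cell 2, 13.5 in cell 3, 11.1 in cell 4, 6.25 in cell 5 and 17.3 in cell 7, and at 0 in the others, with a highest value of 8.22 in the cells with a sum of 0. Cell 2, not cell 1, thus had most of it.

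**Figure D3:**
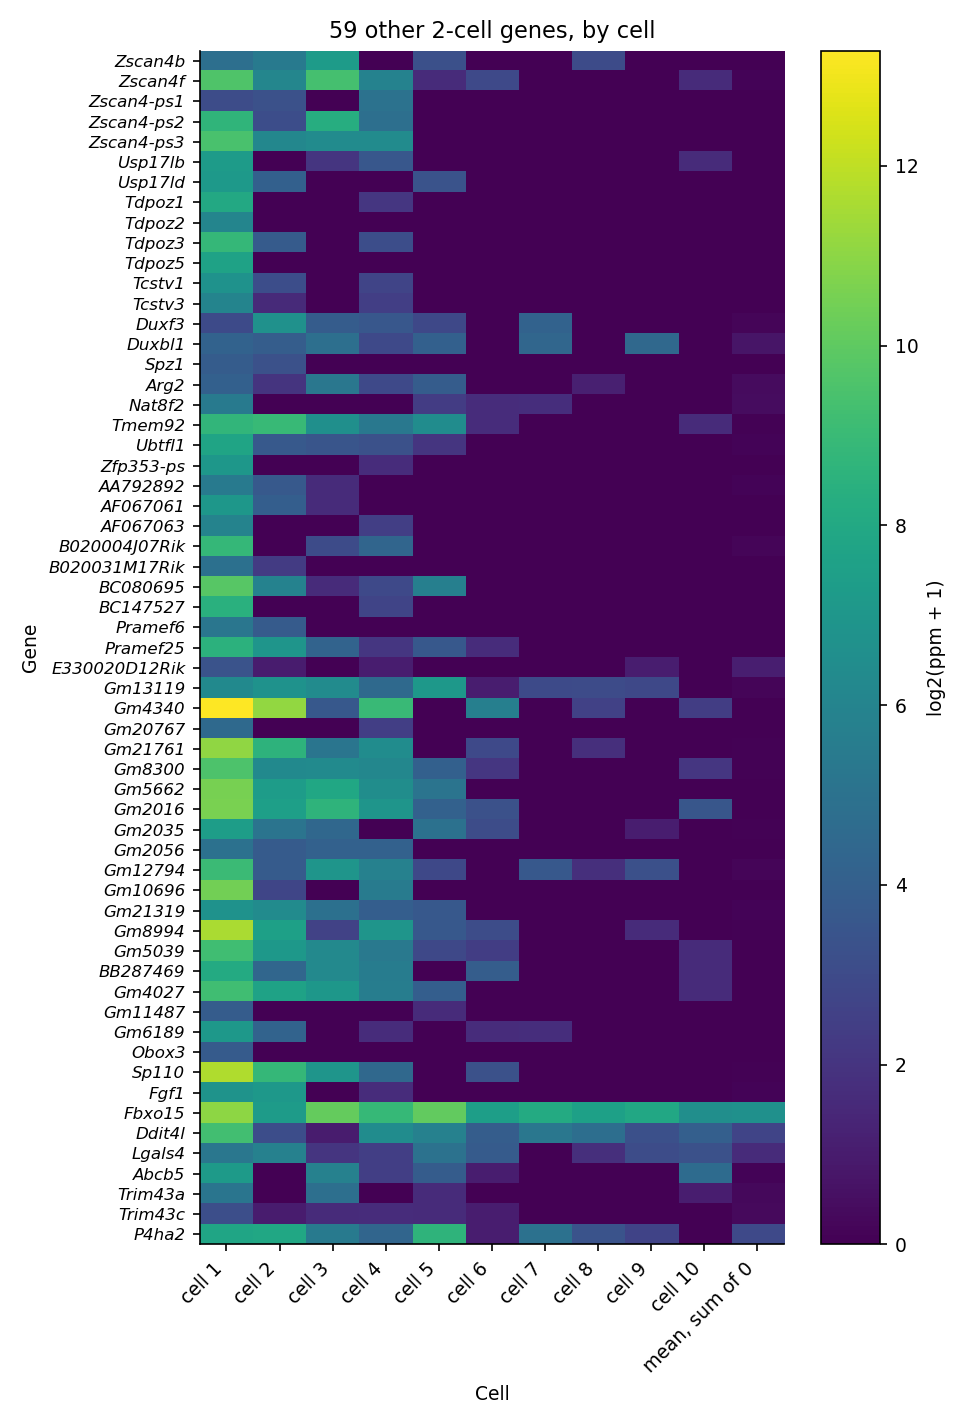
Heat map of log2(ppm + 1) of the 59 other 2-cell genes that were at least 4-fold higher in cell 1 (rows), in cells 1 to 10 and as the mean of the cells with a sum of 0 (columns). The rows were chosen on cell 1; cells 2 to 4 are bright in many of them, cell 5 in some, and cells 7 to 10 in few beside Fbxo15.

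Most of these genes share sequence with others, which limits the reading of single copies. All 8 genes of the sum, and 46 of the 59 listed genes that were 4-fold higher in cell 1, had more than 20% of the 31-base words of their leading row in rows of other genes. Reads from one copy may have been counted for another. The 13 at or below 20% were Spz1, Arg2, Tmem92, Ubtfl1, B020004J07Rik, B020031M17Rik, E330020D12Rik, Fgf1, Fbxo15, Ddit4l, Lgals4, Abcb5 and P4ha2. Of these 13, B020004J07Rik and Abcb5 have a row that shares words with the Tmem72 segment described below.

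One annotated transcript took an unusual part of cell 1. Tmem72 encodes a transmembrane protein, and its longest row of 17152 bases held 365941 of the cell's deposited values, 24.8% of its total. In ppm, the gene stood at 247650 in cell 1, 37020 in cell 2, 3834 in cell 3, 2339 in cell 4 and 4879 in cell 5. It stood at 616, 532, 634, 482 and 747 in cells 6 to 10, against 91.5 to 550 in the cells with a sum of 0. Cells 1 to 6, 8 and 10 thus lay above all cells with a sum of 0, and cells 7 and 9 lay inside their range.

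The row holds a segment of 6417 bases at chr6:116685156-116691572 (mm10), in the last of 5 exons and wholly within the annotated 3′ UTR (chr6:116679063-116695053). The segment begins and ends with copies of a direct repeat of 494 bases, which matched at 493 bases (99.8%). Endogenous retroviruses are bounded by such long terminal repeats, but the segment was not matched to a named element here. In all, 219 rows of 190 genes shared at least 1 word of 31 bases with the segment, and 9 of these genes were on the list of other 2-cell genes and 0 in the sum. The 9 include Gm4340, Gm21761 and B020004J07Rik, whose sharing rows held 5692, 1454 and 457 ppm in cell 1. Among the 190 genes were also Gm44660, Tnfrsf22 (a decoy receptor gene), Gm38947, Gm44739, Gm16344 and Slc25a20, a mitochondrial carrier gene. The leading rows of these 6 share it on the opposite strand.

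The rows that share the segment held 37.7% of the total of cell 1, 6.57% of cell 2, 0.775% of cell 3, 0.558% of cell 4 and 0.952% of cell 5. Cells 6 to 10 held 0.191% to 0.274%, inside the range of the cells with a sum of 0 (0.0614% to 0.294%, median 0.180%). Of the 103 sharing genes that were compared in cell 1, 80 were at least 4-fold higher, with a median log2 fold change of 5.01. Of the other 11697 genes, 935 were at least 4-fold higher and 4286 lower, with a median of -1.44. Sharing genes were only 0.873% of those compared, so leaving them out could hardly move the median. The sharing rows were also left out of each cell's total, a setting chosen after the data were seen. In cell 1, 1463 genes were then at least 4-fold higher and 3050 lower, against 1015 and 4290 with the full total. Values assigned to Tmem72 and to these rows may come from other copies of the same sequence, which was not tested.

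**Figure D4:**
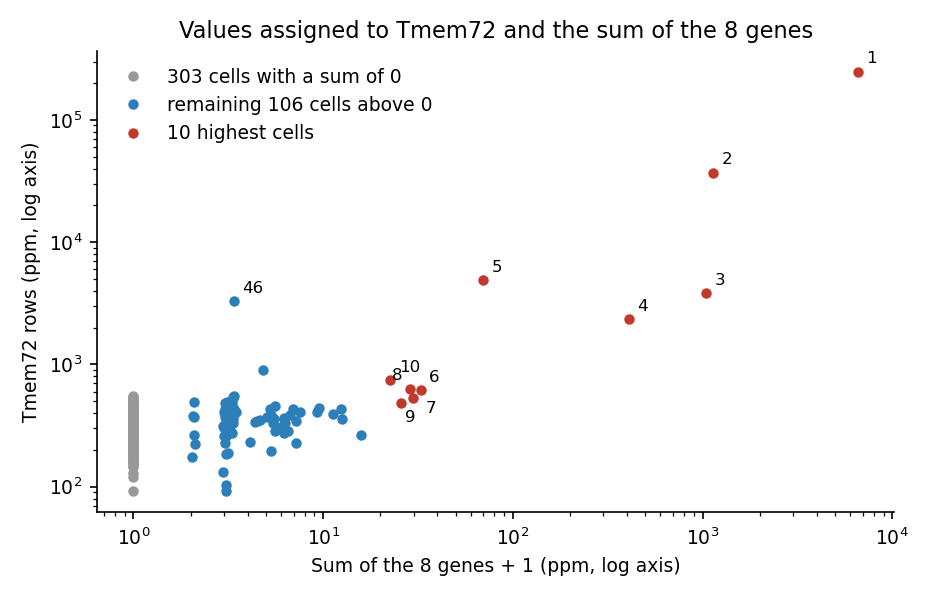
Values assigned to Tmem72 (ppm, log axis) against the sum of the 8 genes plus 1 (ppm, log axis) for 419 cells, with the rank of the 10 highest cells and of the cell ranked 46 beside their points. Cells 1 to 5 and the cell ranked 46 stand at 2339 or above, and all cells with a sum of 0 lie at or below 550.

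The cell ranked 46 was singled out after its values were seen. Its sum was 2.39 ppm, all from Usp17le, and it was sequenced in lane 5. It held 3288 ppm in Tmem72, 1248 in Fbxo15, 129 in P4ha2 and 96.9 in Gm44739, with 10.8 in Gm4340, 9.57 in Tmem92 and 7.18 in Zscan4f. Of the 87 other 2-cell genes, 20 lay above every cell with a sum of 0, as many as in cell 5. None of the other remaining cells had more than 4, and 75 of the 106 had 0. The sum of 8 genes thus ranked 5 cells of the 10 above a cell with more of the other genes.

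Genes higher in cell 1 were also named by size of fold change. Outside the sum, with at least 20 ppm in cell 1 and a value above every cell with a sum of 0, the leading annotated genes were Sp110, BC080695, Tmem72, Zscan4f, Zscan4-ps3, Tdpoz3, D13Ertd608e, Zscan4-ps2, Tmem92, Pramef25, BC147527 and Cacna1s. Of all genes compared, 7.54% lay above every cell with a sum of 0. Sp110, a nuclear body protein gene, was at 3322, 452, 121.5 and 21.1 ppm in cells 1 to 4, with a log2 fold change of 11.64 in cell 1. Cacna1s, a calcium channel subunit gene of skeletal muscle, was at 413, 142.05, 65.4, 8.89 and 38.5 in cells 1 to 5 and at most 12.1 in a cell with a sum of 0. The leading predicted genes were Gm4340, Gm44739, Gm8994, Gm21761, Gm2016 and Gm5662, of which Gm8994 was at 3106, 188, 5.19 and 122 in cells 1 to 4.

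Cell 1 lacked transcripts that are common in the other cells. Of 3576 genes that averaged 50 ppm or more in the cells with a sum of 0, 72 were listed at 0 in cell 1, against 5 to 14 in cells 2 to 10 and a median of 8 (1 to 219) in the cells with a sum of 0. Among the 10 genes with the lowest fold change, Meg3, an imprinted noncoding RNA, was at 2.71 against a mean of 816. The other nine were listed at 0: Ttn (titin, mean 511), Lama1 (a laminin chain, 243), Gm10131 (182), Zfp987 (161.2), Ccnd1 (cyclin D1, 158), Nr0b1 (a nuclear receptor of the naive state, 153), Stmn2 (151), Lifr (the LIF receptor, 150) and Gpc4 (a glypican, 144). In cells 2 to 4 these genes were present: Ccnd1 was at 24.8, 93.5 and 50.0, and Lifr at 160.9, 58.1 and 168. All 10 but Meg3 were also at 0 in at least 1 cell with a sum of 0. Cell 1 had fewer rows above 0 than the median of the cells with a sum of 0, and a total raised by few rows. The part of both in these low values was not tested.

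Because more genes were lower than higher, the fold changes of cell 1 were also centred on the median of all genes, a setting chosen after the data were seen. The share of genes at least 4-fold higher was then 14.7% and of those lower 11.7%. Gene lists are therefore given with both medians, and their counts are set beside 8.60% higher and 36.4% lower over all genes, or beside the centred shares. The 8.60% includes genes that passed the level minimum only through cell 1. Among genes that reached it in the cells with a sum of 0, 1.97% were higher and 40.1% lower. Within the lists below, these kinds of genes were not counted apart. Of 24 naive pluripotency genes, 2 were at least 4-fold higher and 14 lower (2 and 7 centred), with a median of -2.36 (-0.93 centred). Nr0b1 and Lifr were at 0, whereas Dppa3, a maternal factor, was at 70.4 against a mean of 11.5 but below the highest cell with a sum of 0 (274). Zfp42, which encodes REX1, was at 40.6 in cell 1 against a mean of 262, and at 351, 539, 178.8 and 846 in cells 2 to 5. Of 16 core pluripotency genes, 1 was higher and 7 lower (1 and 2 centred), with a median of -1.73 (-0.30 centred), so the share of lower genes was near that of all genes; the higher gene was Dppa2.

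Known activators of Dux did not share a direction. Of 15 compared, 3 were at least 4-fold higher and 5 lower in cell 1 (3 and 1 centred), where 36.4% of all genes were lower, and the median of -0.38 became 1.04 when centred. Nelfa, a subunit of the negative elongation factor, was at 1429 ppm in cell 1, more than 10 times the highest cell with a sum of 0 (135), and at 34.9 to 124 in cells 2 to 10. Dppa2, which activates Dux together with Dppa4, was at 546, 153, 570 and 50.0 in cells 1 to 4 and at 348 in cell 5, and cells 1, 3 and 5 lay above the highest cell with a sum of 0 (313). Trp53 was at 25.0 in cell 1 against a mean of 303. Of 45 genes known to repress the state, 0 were higher and 18 lower (1 and 5 centred), with a median of -1.63 (-0.21 centred), close to that of all genes. Resf1, which acts with the histone methyltransferase SETDB1, was at 254 in cell 1 and Zfp809, a retroviral repressor, at 67.7, and neither was lower than its mean of 193 or 31.5.

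Several lists lay below the median of all genes in cell 1, where 36.4% of all genes were at least 4-fold lower, or 11.7% after centring. Of 17 glycolysis genes, 16 were at least 4-fold lower (2 centred), with a median of -2.91 (-1.48 centred); Ldha, which makes lactate, was at 46.7 against a mean of 974 and below the lowest cell with a sum of 0 (121.4). Of 29 S-phase genes, 0 were higher and 19 lower (0 and 7 centred), with a median of -2.36 (-0.93 centred). Of 11 DNA methylation genes, 7 were lower (2 centred; median -2.62, -1.20 centred), among them Tet2, a methylcytosine dioxygenase, at 12.2 against 335. Of 23 meiotic and telomere genes, 0 were higher and 13 lower (0 and 5 centred), with a median of -2.20 (-0.77 centred). Of 15 formative genes, 9 were lower (5 centred), with a median of -2.83 (-1.40 centred). Of 15 genes of the integrated stress response, 8 were lower (1 centred), with a median of -2.37 (-0.94 centred). Splicing factors (median -1.91, -0.48 centred), nucleolar genes (-1.85, -0.42 centred), the respiratory chain (-1.78, -0.35 centred) and p53 targets (-1.76, -0.33 centred) lay close to all genes.

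Other lists were closer to 0 and changed sign with centring. Of 26 mitotic genes, 0 were at least 4-fold higher and 1 lower, with a median of -0.33 (1.1 centred). Of 21 translation factors, 3 were lower (median -1.03, 0.39 centred), and of 21 proteasome genes 1 was lower (median -1.40, 0.03 centred). Of the primitive endoderm, trophectoderm and fibroblast markers, 0 were above every cell with a sum of 0 in cell 1. Of 20 primitive endoderm markers in the files 12 were at 0, including Gata6, Sox17 and Foxa2. The list summed to 360 ppm, just below the cells with a sum of 0 (373 to 6830). Rows sharing the Tmem72 segment held 37.7% of the total of cell 1, so this place depends on the total used. Of 16 trophectoderm markers 5 were at 0, including Cdx2 and Elf5, with a sum of 231 (22.8 to 16008 in the cells with a sum of 0). Of 16 fibroblast markers 12 were at 0, including Col1a1 and Pdgfrb, and the sum of 411.5 (1.13 to 21182) came mostly from Vim at 398. Of 12 neural markers 8 were at 0, including Pax6, with a sum of 42.6 (4.23 to 959).

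**Figure D5:**
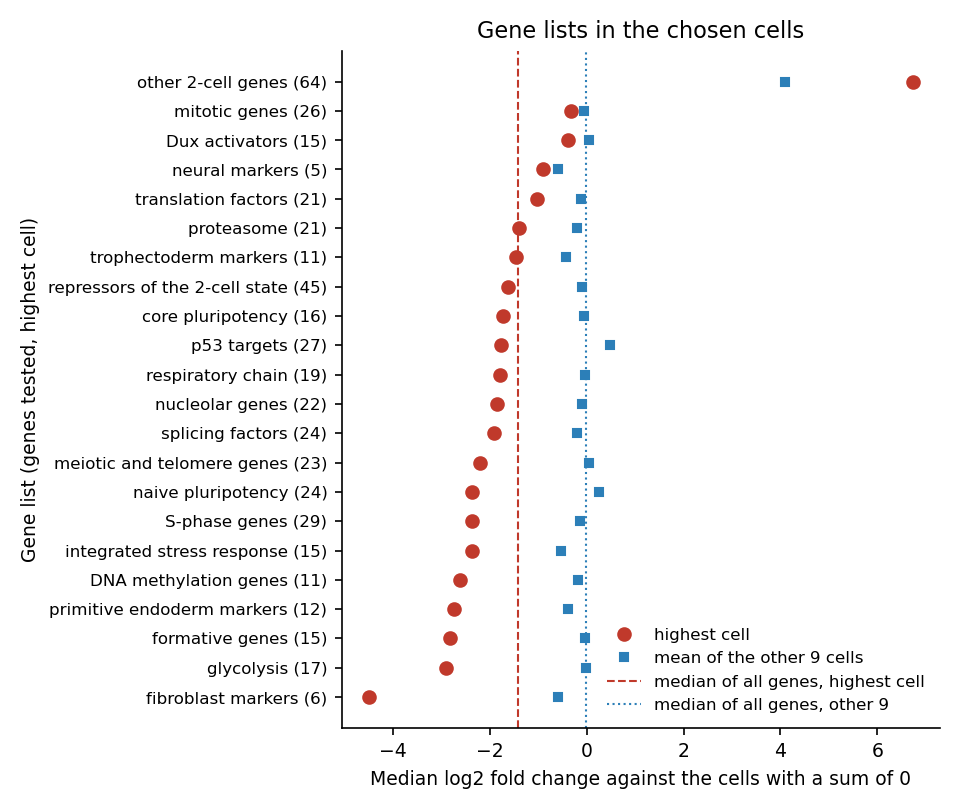
Median log2 fold change, on the log2(ppm + 1) scale, of each gene list (genes compared in cell 1 in parentheses) in cell 1 (red circles) and in the mean of cells 2 to 10 (blue squares) against the cells with a sum of 0. Dashed and dotted lines mark the medians of all genes, -1.43 and 0.00; the other 2-cell genes lie far to the right in both comparisons.

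The mean of cells 2 to 10 was close to the cells with a sum of 0 for most genes. Of 11495 genes compared, 642 were at least 2-fold higher (5.59%) and 211 lower (1.84%), with a median of 0.00. Of the listed 2-cell genes, 38 were compared and 33 were higher, with a median of 4.10; 31 of the 38 passed the level minimum only through these cells. The remaining 7, which reached it in the cells with a sum of 0, included 3 higher genes (Fbxo15, Ddit4l and P4ha2) and 0 lower. As the values per cell show, cells 2 to 5 carry most of this mean.

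Genes named for cells 2 to 10, on the same side of the median in at least 7 of the 9, again included rows that share the Tmem72 segment. Tmem72 had a log2 fold change of 4.08, which was 2.39 without cell 2. Gm44739 had 7.46 (4.55 without cell 2), and Gm38947 had 4.50 (2.57 without cell 2). Arsk, a sulfatase gene, was at 265 in cell 2 but at 2.08 to 10.4 in the others, and its value of 3.19 was 0.68 without cell 2. Mgll, a monoacylglycerol lipase gene, had 3.05 and 1.49 without cell 2, and P4ha2 had 3.44 and 2.54 without cell 5. Gm13119, at 107, 84.1, 22.2 and 136 in cells 2 to 5, had 5.23 and changed little without any single cell. Gm12794, at 119 in cell 3, had 4.46 and 3.53 without it, while Gm16344 had 4.30 and Gm12798 4.22, which were 2.53 and 2.48 without cell 2.

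The leading genes lower in cells 2 to 10 had much of their signal in a few cells with a sum of 0. Tagln, an actin-binding protein of contractile cells, was at 4.62 or less in all 9 against a mean of 58.1, but the median of the cells with a sum of 0 was 3.12, and 59.3% of their total came from 10 cells. Krt19, a keratin, and Tgm2, a transglutaminase, likewise had medians of 1.97 and 4.57, with 56.3% and 65.0% in 10 cells. Cnn2, a calponin, was spread more evenly: its median was 41.9, and all 9 cells lay below it, at 0 to 22.9. Msln, a surface protein gene, was at 0 to 16.4 against a median of 14.3. Prph, Parva, Nuak1 and Gm26945 were also named by this rule, with log2 fold changes from -1.82 to -1.65.

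The other gene lists had medians between -0.59 and 0.48 in the mean of cells 2 to 10, where 5.59% of all genes were at least 2-fold higher and 1.84% lower. Naive pluripotency genes had 3 of 24 members higher and a median of 0.25, p53 targets 6 of 27 and a median of 0.48, genes of the integrated stress response 2 of 15 lower and a median of -0.53, and S-phase, mitotic, glycolysis, respiratory chain and splicing lists 0 in either direction. The p53 targets summed to 4441 ppm in cell 7, 4188 in cell 4, 3463 in cell 8 and 3245 in cell 6, against 1257 in cell 5 and a median of 1613 (761 to 7197) in the cells with a sum of 0, so the higher members do not follow the order of the 2-cell genes. Of 46 repressors of the state, 0 were higher or lower. Of 11 trophectoderm markers, 5 were lower, and of 7 fibroblast markers, 1 was higher and 3 were lower; both lists have their highest values in few cells with a sum of 0.

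The alleles were read separately, and the choice of cells used their sum but not their ratio. The shares of the 8 genes thus come from the values that chose the cells. In cell 1, the 8 genes of the sum had 4973 values from 129 and 4796 from CAST, a 129 share of 50.9%, and the 59 listed genes that were 4-fold higher had 54.9%, against 49.0% over all autosomal genes of the cell. The sum over the 8 genes was thus near equal between alleles in cell 1, but the single genes ran from 29.2% (Tdpoz4) to 74.1% (Zscan4c), and 2 of the 8 lay between 45% and 55%. In cells 2 to 4 the share of the 8 genes was 68.9%, 70.3% and 36.7%. Single genes departed further in cells 2 to 4: Usp17lc had 4 values from 129 and 222 from CAST in cell 2 (1.77% 129), 273 and 30 in cell 3 (90.1%), and 28 and 140 in cell 4 (16.7%). In cell 1 it had 2015 and 2069 (49.3%). Zscan4c was at 74.1%, 72.8%, 66.6% and 60.9% in cells 1 to 4. Gene by gene in cell 1, the 59 listed genes ran from 0% (Gm20767) to 100% (Spz1) with a median of 50.2%, and 11 lay between 45% and 55%. Some genes were split almost evenly in each of cells 1 to 4. Gm5039 had 433 and 430, 69 and 68, 36 and 37, and 18 and 18, and Tmem92 had 311 and 310 in cell 1. How values without strain variants were divided between the tables is not given. A share near 50% is therefore not read as expression from both alleles. With near-identical copies in the genome, a share may reflect which copy a read was assigned to, which was not tested, and the depth in reads is unknown.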

How the data were processed

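Single-cell RamDA-seq values of 419 cells were used as deposited, in one table for each allele (129 and CAST). The deposited values are whole numbers with similar totals in all cells, which raw counts of single cells would not have, and are therefore treated as a score (apparently scaled and rounded allele counts). The scaling, the allele assignment and the role of Bowtie 1.1.2 and mm10, named in the submitters' processing notes, are not given in the sources used here. Depth in reads is therefore unknown; the design had assumed counts. Rows were joined to GENCODE vM21 (116919 of 117762 matched, the others with 0.360% of all values), both tables were summed per gene, and levels are per 1000000 of the cell's total (ppm). Genes needed 5 ppm in the chosen cell, in the mean of the 9, or in the mean of the cells with a sum of 0. A pseudocount of 1 ppm was added. Differences were described as at least 4-fold (single cell) or 2-fold (mean of 9) and not tested. Genes were named by rank of fold change, the 12 highest annotated, 6 predicted and 10 lowest in cell 1, and the 10 highest and 10 lowest in cells 2 to 10 (1 of these genes is not reported here); listed 2-cell genes and the extremes of other lists were named too. The cells, lists and rules were chosen with earlier results of these data known. Shared sequence was counted in exact words of 31 bases between GENCODE transcripts, open reading frames were aligned with BLOSUM62, and promoters were taken from RefSeq (GRCm38.p6). No doublet caller was run and 0 columns were unmatched. Alternatives covered the pseudocount, filter, total, rows, tables, reference cells, lanes and choice of cells. Python 3.11.15, numpy 2.4.6, pandas 2.3.3, matplotlib 3.10.9 and Biopython 1.88 were used. The 2-fold calls for the mean of 9 cells were run on simulated counts, in genes of at least 20 ppm and with planted changes well above 2-fold. Changes near 2-fold, genes at lower levels and the unknown scaling were not covered by it. The 4-fold calls for a single cell, the shared sequence and the allele shares were not tested on simulated data.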

Additional observations from a re-analysis of the deposited data

How the results depend on the processing

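Depth in reads is unknown and the cells are 1 sample, so the limits below come from the choices of processing. No paired analysis was possible because there is 1 group and no test. For cell 1, 1015 genes at least 4-fold higher became 603 with a pseudocount of 5, 606 with a level minimum of 20 and 1737 after centring, and 4290 lower genes became 2039, 2467 and 1381. For cells 2 to 10, 642 higher and 211 lower genes became 332 and 95 with a pseudocount of 5, 235 and 72 with a minimum of 20, 1188 and 386 with no filter, 1113 and 639 for the next 4 cells, 228 and 85 for the next 19, 205 and 723 with the median of the 9, and 1383 and 27 against the median of the cells with a sum of 0. Ranked by Zscan4a, Zscan4c and Zscan4d alone, 347 were higher. The 129 values alone gave 454 lower genes and the CAST values alone 386. Leaving out 1 cell gave 558 to 752 higher and 222 to 256 lower. The listed 2-cell genes higher in cell 1 stayed within 1.5 times of 59 under every alternative run. Those higher in cells 2 to 10 (33) were 20 with a minimum of 20 and 11 with the median of the 9, and 30 to 35 without 1 cell. Their median of 4.10 was 1.72 with no filter, 1.41 with the median of the 9, and 3.97 to 4.17 without 1 cell. The 129 share of 54.3% in cell 1 moved by less than the spread of cells 1 to 4. Centring, the total without rows sharing the Tmem72 segment, undivided values, the median reference and cells with at least 1% mitochondrial values were added after seeing the data. Of 20 genes named for cells 2 to 10, 13 of 533 values fell below 2-fold, including P4ha2 in the CAST values alone (0.21), and 0 reversed.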
